A study of Mus musculus with 14 samples.

Results

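Thymus RNA taken after 6 days on a genistein diet was set against thymus RNA taken after 2 days on the same diet. These were 4 of the 14 arrays of the series, the 2 titled as day 6 and the 2 titled as day 2 of genistein. The question was how expression in the thymus moved on within the genistein arm, so the untreated arrays of day 0 were not used. The mice were female C57BL/6, an inbred strain, received at 21 days of age and ovariectomised at 26 days, which removes the main source of their own estrogen. They were put on AIN-93G, a purified diet free of phytoestrogens, 2 days later, and treatment began at 30 days of age. Genistein was given at 1500 ppm in the diet. Each array held RNA pooled from 3 of the 6 mice of a group, and the labels call the 2 pools of a group independent biological replicates. The 2 arrays of genistein day 3 entered the same fit. The estradiol groups of days 2 and 6, which came from mice ovariectomised in the same way and injected daily under the skin with 125 ng of 17β-estradiol in 0.02 ml of corn oil, served to test whether the change over days differed between the arms. Mice at day 6 had been longer on the diet, were older and were further from surgery than mice at day 2, and these cannot be told apart here.

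Genistein is an isoflavone of soy that binds both estrogen receptors and also inhibits tyrosine kinases. Estrogens are known to shrink the thymus, the organ in which T cells mature. Most of its cells are double-positive thymocytes, which carry CD4 and CD8 and rearrange their antigen receptor with the recombinases Rag1 and Rag2. They are selected on cortical and then medullary epithelium, and macrophages and dendritic cells clear the dead cells and present antigen. A whole-organ sample holds all of these, and in such a sample fewer cells of a type and less RNA per cell cannot be told apart.

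No gene differed between day 6 and day 2 after adjustment. Of 13576 probe sets bright enough to be tested, which stand for 8261 genes, limma called 0 (0%) at an adjusted p under 0.05, and the smallest adjusted p was 0.9997. At an unadjusted p under 0.05 there were 627 probe sets (4.62%), 345 higher and 282 lower at day 6. Over genes, each represented by its brightest probe set, 347 (4.2%) had an unadjusted p under 0.05, with 212 (2.57%) higher and 135 (1.63%) lower at day 6. Both day 6 arrays lay above both day 2 arrays for 1271 genes (15.4%) and below them for 1235 (14.9%), and 50.1% of genes had a log2 change above 0. These shares are the background for every count of members below. The median standard error of a log2 change was 0.21, with 28 probe sets beyond 2-fold, 14 in each direction. With 2 arrays against 2 an exact permutation test of a single gene cannot give a p below 0.333, so the fit across all genes was the only test used. All changes below are log2 differences on the scale of log2(signal + 16), which understates the change of dim genes, and no gene had an adjusted p under 0.9997 for day 6 against day 2. They are values and not calls.

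**Figure D1:**
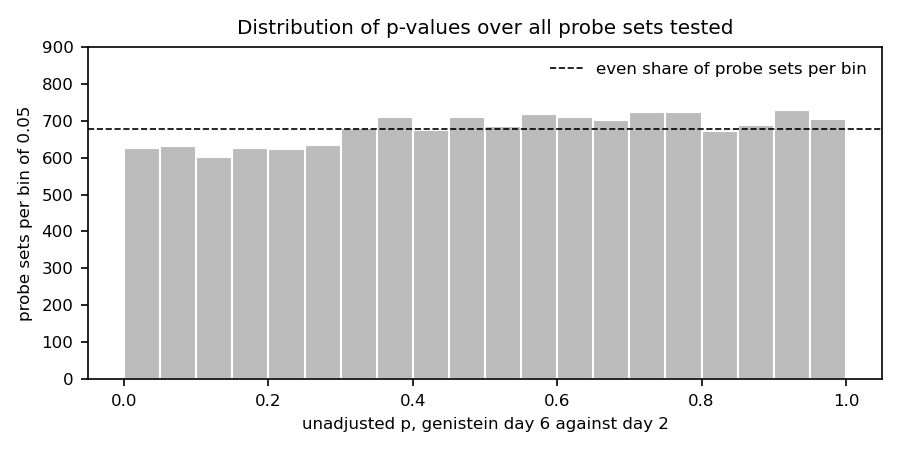
Number of probe sets (vertical axis) in each bin of unadjusted p (horizontal axis) for genistein day 6 against day 2 in the limma fit of 6 arrays, with the even share per bin as a dashed line. The first bin holds 627 probe sets, below the even share of 678.8.

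The 6 genistein arrays shared 1 scale, with a 2%-trimmed mean signal of 150.04 on each. Replicates correlated at 0.960 at day 2, 0.970 on day 3 and 0.961 at day 6, and the median SD of a probe set between the 2 arrays of a day was 0.151, 0.147 and 0.152 on the log2 scale. The first principal component held 37% of the variance and did not order the arrays by day, since the 2 arrays of day 6 lay at 16.23 and -11.91. The ratio of Gapdh signal at the 3' end to that at the 5' end, a measure of how far RNA was intact or fully copied, was 0.867 and 0.929 on the day 2 arrays, and 1.5 on day 6 replicate 1 against 1.04 on day 6 replicate 2. For actin (Actb) this ratio was 1.06 and 1.32 at day 2, and 1.60 and 1.29 at day 6. The higher ratio of day 6 replicate 1 moves with the contrast, and its part in single results was not tested beyond the fits with the ratio as a covariate and without that array.

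The tissue label held. Rag1 gave signals of 2402.8 and 2225.7 at day 2 and 1916.6 and 2483 at day 6, a change of -0.08 ± 0.15 (SE), with a 95% confidence interval of -0.41 to 0.25. Cd8a gave 2018.4 and 2128.2 at day 2 and 1617 and 1796.6 at day 6, a change of -0.28 ± 0.14 with an interval of -0.58 to 0.02. Cd4 gave 757.1 and 921.6 at day 2 and 484.8 and 844.9 at day 6, a change of -0.38 ± 0.26 with an interval of -0.95 to 0.20. The day 6 arrays of Cd8a lay below both day 2 arrays, while those of Rag1 and Cd4 overlapped with day 2. A second probe set of Cd8a did overlap, with 1247.3 and 1508.6 at day 2 and 1248.9 and 1210.9 at day 6 (-0.16 ± 0.15). The receptors through which genistein is known to act were near the bottom of the scale. Esr1, estrogen receptor alpha, gave 13.4 and 30 at day 2 and 15.2 and 12.9 at day 6, and Esr2, estrogen receptor beta, gave 13.9 and 9.7 and then 11.4 and 14. Pgr, the progesterone receptor and a classical estrogen target, gave 25.9 and 18.3 and then 7.1 and 32.7. All 3 were below the lowest mean signal kept for testing, 45.5, so nothing can be said of a change in them.

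Among single genes, the receptor chaperone Rtp4, which interferons induce, had the smallest p of those higher at day 6 without overlap, with each gene represented by its brightest probe set. Its signal was 188.3 and 111.4 at day 2, 321.4 and 278.1 on day 3 and 355.2 and 310 at day 6. The day 6 arrays lay above both day 2 arrays, and so did those of day 3, with a change from day 2 to day 6 of 1.11 ± 0.23 (unadjusted p = 0.000501, adjusted p = 0.9997 in limma; interval 0.60 to 1.62). Cbr2, a carbonyl reductase, went from 688.2 and 540.7 at day 2 through 928.4 and 961.3 at day 3 to 992.3 and 1132.8 at day 6, a difference of 0.78 ± 0.17. Exd2, a DNA exonuclease, gave 44.5 and 52.8 at day 2, 134.5 and 135.5 on day 3 and 91.4 and 125.7 at day 6, so that its highest arrays were those of day 3. Its difference from day 2 was 0.94 ± 0.21 at day 6 and 1.23 ± 0.21 at day 3. Oxct1, the enzyme that lets cells burn ketone bodies, gave 190.8 and 242.8 at day 2, 373.2 and 357.4 on day 3 and 374.8 and 363 at day 6, a difference of 0.73 ± 0.18. The other 3 probe sets of Oxct1 also had a change above 0, and for 1 of them the arrays of day 6 and day 2 did not overlap. The probe sets differed in their course, since 1 of the others gave 46.2 and 45.6 at day 2, 150.5 and 124 on day 3 and 40.4 and 67.5 at day 6, a difference of -1.15 ± 0.24 from day 3 to day 6 (unadjusted p = 0.000503 in limma). H1f2, a linker histone, gave 217.8 and 265 at day 2, 495.1 and 363 on day 3 and 438.3 and 436.6 at day 6, a difference of 0.82 ± 0.20. One other probe set of H1f2 lay apart in the same direction (0.79 ± 0.23). Another changed by only 0.07 ± 0.24, with overlapping arrays. In the brightest probe sets of Rtp4, Cbr2, Exd2, Oxct1 and H1f2 both day 3 arrays also lay above both day 2 arrays, beside 14.6% of all genes. The genes were chosen for day 2 arrays that lay below day 6, and the same day 2 arrays enter here. Day 3 is therefore no separate evidence of a rise. In these probe sets none of the differences from day 3 to day 6 reached an unadjusted p under 0.05.

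For Jchain, the chain that joins IgA and IgM into polymers and a product of plasma cells, day 3 lay between the other days. Its signal was 151.3 and 178.9 at day 2, 239.1 and 201.6 on day 3 and 361 and 271.5 at day 6, a difference of 0.87 ± 0.20 from day 2 to day 6. S100a6, a calcium-binding protein of many stromal and activated cells, gave 73.3 and 110, then 141.4 and 142.4, then 188.2 and 173.6, a difference of 0.89 ± 0.21. Pura, a binder of purine-rich DNA and RNA, gave 360.6 and 441.2, then 558.4 and 511.9, then 658 and 651.9, a difference of 0.69 ± 0.17. For these 3 genes the arrays of the 3 days did not overlap. They were chosen for day 6 apart from day 2, and the share of all genes with such an order of days was not counted. The second probe set of Pura did not share the direction, with 186.7 and 165 at day 2 and 147.2 and 176.5 at day 6. Ctsw, cathepsin W, a protease of cytotoxic lymphocytes, gave 116.8 and 88.5 at day 2, 203.9 and 163.6 on day 3 and 262.9 and 171.5 at day 6, a difference of 0.96 ± 0.23. Serf1 gave 42.9 and 17.8 at day 2, 78 and 64.9 on day 3 and 94.3 and 71.7 at day 6, a difference of 1.14 ± 0.28. For both, day 2 held the 2 lowest arrays and the arrays of days 3 and 6 overlapped.

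Of the 10 genes lower at day 6 with the smallest p, Ccdc186, a coiled-coil protein, came first. It gave 199.1 and 141 at day 2, 113.9 and 139.4 on day 3 and 90.3 and 61.9 at day 6, a difference of -1.01 ± 0.23 (unadjusted p = 0.00109, adjusted p = 0.9997 in limma). Uck2, the uridine-cytidine kinase that salvages pyrimidines for nucleotide synthesis, gave 554.6 and 630.7 at day 2, 302.5 and 440.9 on day 3 and 322.8 and 324.7 at day 6, a difference of -0.84 ± 0.20. The arrays of days 3 and 6 all lay below both of day 2, and for day 3 this held in 20.3% of all genes. A second probe set of Uck2 did not share this, with 297.1 and 226.8 at day 2 and 261 and 275.6 at day 6. Ikzf1, which encodes Ikaros, a transcription factor of lymphocyte development, gave 359.7 and 341.1 at day 2, 265.2 and 321.7 on day 3 and 155.4 and 247.4 at day 6, a difference of -0.79 ± 0.22. Day 6 held its 2 lowest arrays and day 2 its 2 highest.

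Ppargc1b, a coactivator of genes of mitochondria and fat oxidation, rested most on 1 array. Its signal was 199.6 and 145.6 at day 2, 118.6 and 129.5 on day 3, and 105.4 and 32.8 at day 6, a difference of -1.28 ± 0.34. Without day 6 replicate 1 the difference was -1.94 and passed the threshold (limma adjusted p = 0.0387), and over all alternatives the adjusted p ran from 0.0387 to 0.9998. Gtpbp6, a GTP-binding protein of mitochondrial ribosomes, gave 112.8 and 86.5 at day 2, 65.6 and 119.2 on day 3 and 28.7 and 55.1 at day 6, a difference of -1.03 ± 0.30. Cstf3, a subunit of the factor that cleaves pre-mRNA before polyadenylation, gave 380.3 and 467.7, then 405.6 and 417.1, then 251.8 and 287.9, a difference of -0.62 ± 0.18. In Cstf3 and Gtpbp6 the arrays of day 3 overlapped with those of day 2, and day 6 alone lay below. The other 4 of the 10 had differences of -0.65 (Nol6, a nucleolar protein), -0.69 (Nudcd3, a chaperone partner), -0.77 (Sftpb, surfactant protein B) and -0.83 (Col25a1, a membrane collagen), and their arrays of day 6 did not overlap with those of day 2, as the rule for naming required. A second probe set of Nol6 changed by only -0.025 ± 0.18, and its arrays overlapped.

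**Figure D2:**
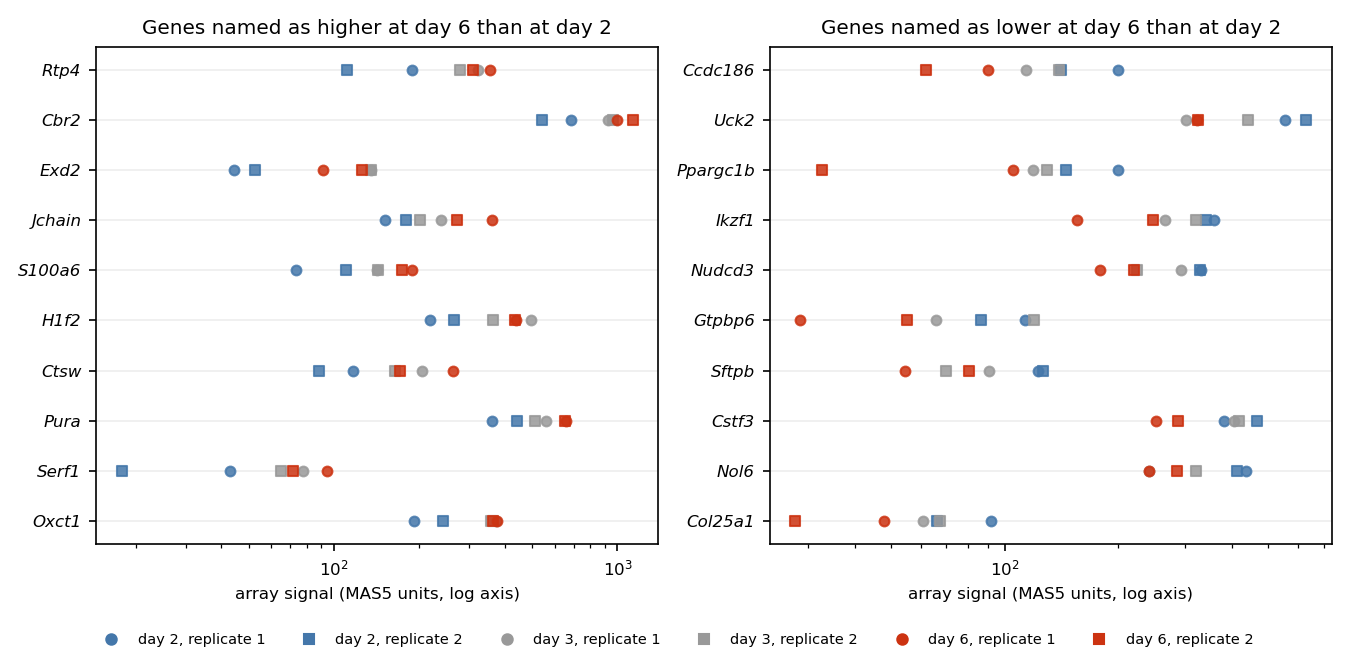
Signal on each of the 6 genistein arrays (horizontal log axis, MAS5 units) for the 10 genes with the smallest p in each direction, one gene per line, coloured by day and shaped by replicate. Day 6 and day 2 do not overlap in any gene because the rule for naming required it, and the grey points of day 3 lie near day 6 for Oxct1 and near day 2 for Cstf3.

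The day between added no call. For day 3 against day 2 limma called 0 (0%) of 13576 probe sets, with 741 (5.46%) at an unadjusted p under 0.05 and a smallest adjusted p of 0.708. For day 6 against day 3 it called 0 (0%), with 403 (2.97%) at an unadjusted p under 0.05, and the F test of any difference among the 3 days called 0 (0%), with 565 (4.16%). With each gene represented by its brightest probe set, the smallest p of day 3 against day 2 belonged to Exd2, followed by S100a8, a calcium-binding protein of neutrophils, with 158.5 and 157.4 at day 2, 462.7 and 295.5 on day 3 and 188.4 and 260.3 at day 6. Its difference was 1.15 ± 0.24 on day 3 and 0.45 ± 0.24 at day 6, both from day 2. C77080 had a difference of 1.08 at day 3 against day 2, D030056L22Rik one of 0.87 and Grhl2, an epithelial transcription factor, one of -1.07. Second probe sets gave 0.37 ± 0.22 for D030056L22Rik and -0.14 ± 0.20 for Grhl2. For day 6 against day 3 the smallest p over genes, counted in the same way, belonged to Slfn2, a gene that keeps T cells quiescent. It gave 494.6 and 493.5 at day 2, 598.7 and 749.7 on day 3 and 245.7 and 382.5 at day 6, so that day 3 held its highest and day 6 its lowest arrays, with a difference of -1.09 ± 0.22 from day 3 and -0.66 ± 0.22 from day 2. The others were Cort (1.46), Igdcc4 (1.10), Gpank1 (0.86) and Api5 (-0.79), each given as the log2 difference of day 6 from day 3. A second probe set of Gpank1 went the other way (-0.29 ± 0.23), and dimmer ones of Api5 had smaller differences (-0.16 ± 0.25 and -0.39 ± 0.30). The F test's 5 smallest p over genes were those of Exd2, Rtp4, Slfn2, S100a8 and C77080. A dimmer probe set of Oxct1 had an F test p of 0.000329, between those of Exd2 (0.000292) and Rtp4 (0.000949).

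Described by cell type and pathway, the lists moved by little, and more of them lay above 0 than below. Of 37 lists, with 528 genes tested and 0 called, 26 had a median log2 change above 0 at day 6 and 11 below, between -0.28 and 0.44, beside a median of 0.00 over all 8261 genes. Lists of macrophage, dendritic cell and B cell markers were on the higher side, and those of cell division on the lower side. Fibroblast and endothelium lists had medians of -0.11 and -0.09, but without day 6 replicate 1 these were 0.04 and 0.02, and with the Gapdh ratio as a covariate 0.20 and 0.17.

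**Figure D3:**
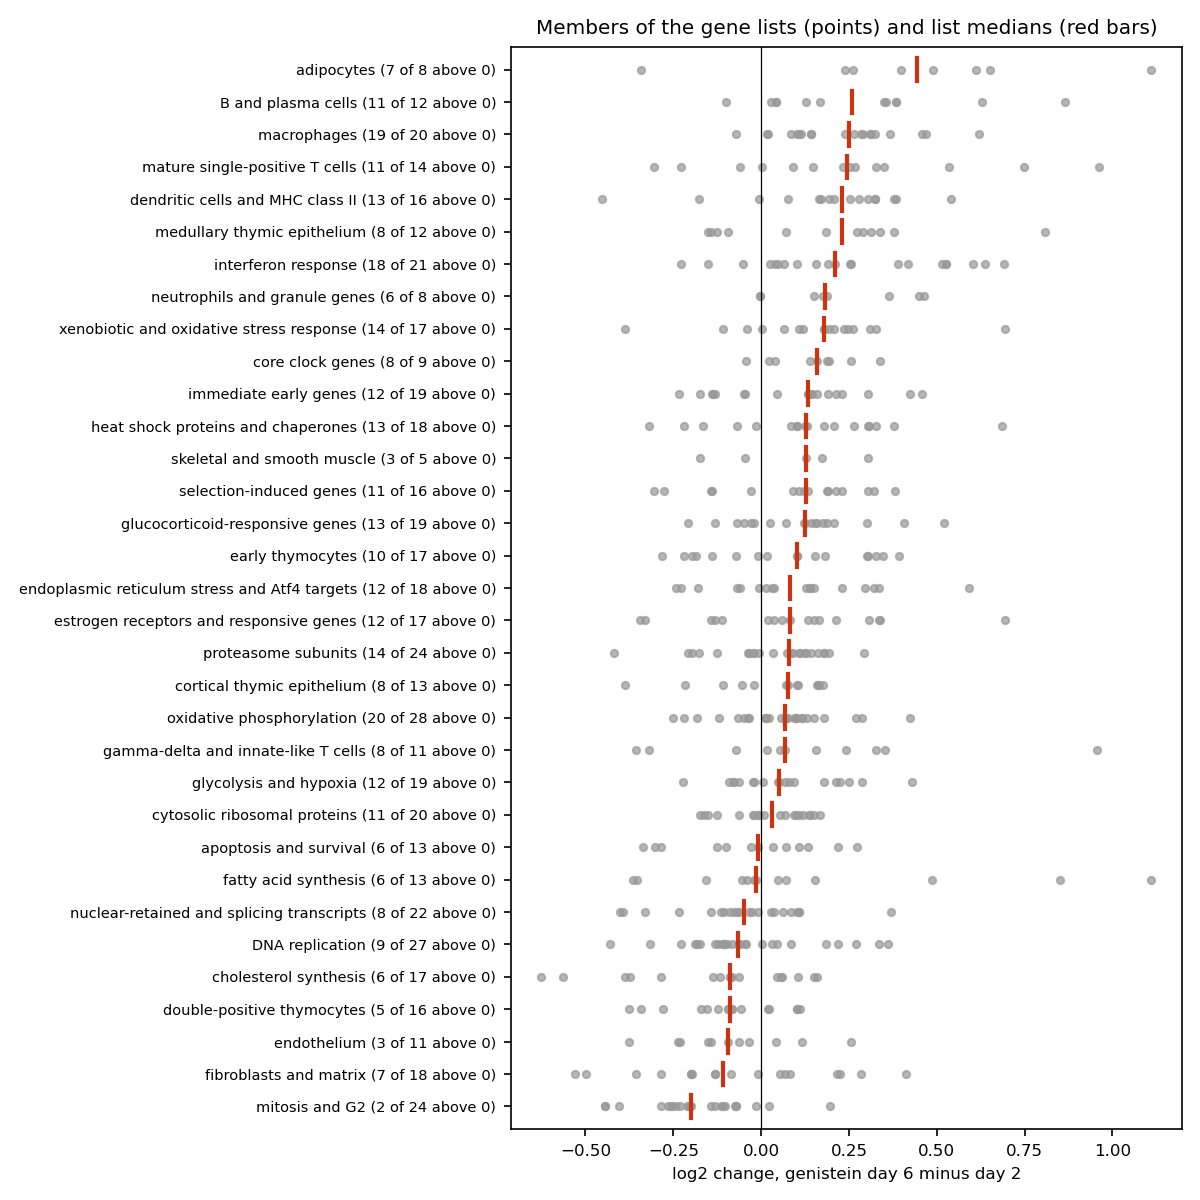
Log2 change from day 2 to day 6 of genistein (horizontal axis) for each tested member (grey point) of the lists with at least 5 tested genes, with the list median as a red bar and the count of members above 0 beside each name. The macrophage list has 19 of 20 members above 0 and the mitosis list 2 of 24.

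Interferon-response genes, which cells switch on through the factors of the STAT and IRF families, were by count the list with the most members whose day 6 arrays both lay above day 2. By share of tested members, the adipocyte list (6 of 8) and the dendritic cell and MHC class II list (10 of 16) stood higher. Of 21 tested, 18 were higher at day 6 and 3 lower. In 12 of the 21 both day 6 arrays lay above both of day 2, beside 15.4% of all genes, and in 0 below, beside 14.9%. The median was 0.21, and it was 0.09 for day 3 against day 2. Ifi27l2a, an interferon-induced membrane protein, gave 313.9 and 282.1 at day 2, 406.1 and 426.5 on day 3 and 520.8 and 426.3 at day 6, a difference of 0.64 ± 0.18. Cxcl10, a chemokine for activated T cells, gave 100.7 and 84.2, then 136.7 and 120.7, then 150 and 146.2, a difference of 0.60 ± 0.19. Bst2, tetherin, which holds budding viruses at the cell surface, gave 55.9 and 81.7, then 77 and 104.8, then 101.3 and 139.8, a difference of 0.69 ± 0.24. In Cxcl10 and Ifi27l2a day 2 held the lowest arrays and day 3 lay above it, while for Bst2 the days 2 and 3 overlapped. Usp18, a brake on interferon signalling, gave 222.7 and 265.2 at day 2 and 335 and 374.8 at day 6, a difference of 0.52 ± 0.18. Oasl2 differed by 0.53 ± 0.22 and Irgm1, an interferon-induced GTPase, by 0.42 ± 0.19. The 3 members below 0 were Gbp3 (-0.23), Ifit2 (-0.15) and Psmb9 (-0.05), and Mx1 and Mx2 were too dim to be tested. Leaving out 1 of the 4 arrays gave medians of 0.17 to 0.27.

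These promoters are shown because the interferon list has, by count and not by share, the most members with both day 6 arrays above day 2. Many of its genes also share a letter pattern. Of the 18 list genes on the array with a promoter entry of 300 bases (250 before to 50 after the start, from RefSeq on GRCm38.p6), 12 (66.7%) hold the core of the interferon-stimulated response element, GAAANNGAAA on either strand, against 3.99% of all 27025 genes with an entry. Members whose day 6 arrays lay above day 2 were taken in order of p, and those without an entry or a match were passed over. The sequences printed thus hold the pattern by choice. The 10 letters are in capitals, with overlapping matches run together. A match is a description of the sequence and no measured site.
Cxcl10 (chr5:92348840-92349139, minus strand): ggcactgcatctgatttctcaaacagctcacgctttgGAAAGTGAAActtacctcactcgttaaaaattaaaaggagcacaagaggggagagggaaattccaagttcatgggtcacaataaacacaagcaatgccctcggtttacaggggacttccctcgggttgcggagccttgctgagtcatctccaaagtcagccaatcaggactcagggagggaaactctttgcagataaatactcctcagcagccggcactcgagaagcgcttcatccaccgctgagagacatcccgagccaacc
Bst2 (chr8:71537423-71537722, minus strand): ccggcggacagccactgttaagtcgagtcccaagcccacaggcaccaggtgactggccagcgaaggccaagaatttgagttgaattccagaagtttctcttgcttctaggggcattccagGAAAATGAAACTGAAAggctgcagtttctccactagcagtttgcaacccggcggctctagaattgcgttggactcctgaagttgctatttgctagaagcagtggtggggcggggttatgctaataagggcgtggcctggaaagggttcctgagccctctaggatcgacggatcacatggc
Of the 9 members with an entry whose day 6 arrays all lay above day 2, 6 (66.7%) hold the pattern, the same share as in the whole list.

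Genes of mitosis and G2, the machinery that builds the spindle and splits the cell, lay on the other side. Of 24 tested, 22 were lower at day 6 and 2 (Cenpa and Cdk1) above 0, with a median of -0.20. In 10 of the 24 both day 6 arrays lay below both of day 2, beside 14.9% of all genes, and in 0 above. For day 3 against day 2 the median was -0.23, with 3 members above 0, beside a median of -0.027 over all genes. Prc1, which bundles microtubules between the dividing chromosomes, gave 561.6 and 658.2 at day 2, 400.4 and 411.6 on day 3 and 439.3 and 445.3 at day 6, a difference of -0.45 ± 0.17. Plk1, the kinase that drives entry into and exit from mitosis, gave 533.2 and 568.9, then 395.1 and 377.9, then 455.7 and 351.3, a difference of -0.45 ± 0.18. Nusap1, a spindle protein, gave 981.6 and 1058.9, then 884.3 and 891.4, then 774.3 and 757.7, a difference of -0.41 ± 0.15. In all 3 the arrays of days 3 and 6 lay below both of day 2. Both day 3 arrays lay below both of day 2 in 20.3% of all genes. The same day 2 arrays enter both differences, so day 3 is no separate evidence of a fall. Mki67, the usual proliferation marker, gave 1283.3 and 1157.6 at day 2 and 1284.4 and 1043.9 at day 6, a difference of -0.07 ± 0.16, and its arrays overlapped. The day 6 side of the mitosis list came largely from replicate 2, since without that array the median was -0.09 with 9 of 24 members above 0, while it was -0.33 with the Gapdh ratio as a covariate. Genes of DNA replication had a median of -0.07, with 18 of 27 below 0. In 8 of the 27 both day 6 arrays lay below day 2, beside 14.9% of all genes, and in 1 above, beside 15.4%. That median was -0.13 without day 2 replicate 1 and -0.04 without day 6 replicate 2.

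Promoters of cell cycle genes often carry a CCAAT box and the cell cycle genes homology region, TTTGAA. The 2 shown were taken in order of p from the mitosis members whose day 6 arrays lay below day 2. Members without an entry or a match to either pattern were passed over, so the 2 hold a match by choice. Of the 21 list genes on the array with an entry, 16 (76.2%) hold TTTGAA on either strand against 20.2% of all genes with an entry, and 19 (90.5%) hold CCAAT against 41.1%. Both patterns are in capitals.
Prc1 (chr7:80294201-80294500, plus strand): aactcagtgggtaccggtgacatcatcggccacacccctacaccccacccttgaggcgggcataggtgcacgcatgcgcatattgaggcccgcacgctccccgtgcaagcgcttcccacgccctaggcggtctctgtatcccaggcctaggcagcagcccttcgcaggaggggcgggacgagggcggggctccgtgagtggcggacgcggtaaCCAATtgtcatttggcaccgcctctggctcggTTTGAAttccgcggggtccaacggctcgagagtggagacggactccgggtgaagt
Plk1 (chr7:122159185-122159484, plus strand): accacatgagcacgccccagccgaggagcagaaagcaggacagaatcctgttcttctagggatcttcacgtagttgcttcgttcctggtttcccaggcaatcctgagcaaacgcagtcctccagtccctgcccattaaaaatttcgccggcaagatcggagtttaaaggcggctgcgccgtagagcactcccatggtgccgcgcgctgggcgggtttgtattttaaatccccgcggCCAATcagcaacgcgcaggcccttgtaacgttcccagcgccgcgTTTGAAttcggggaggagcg

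Macrophage genes lay nearly all on one side. Of 20 tested, 19 were above 0 and 1 below, with a median of 0.25. In 10 both day 6 arrays lay above both of day 2, beside 15.4% of all genes, and in 0 below, beside 14.9%. Mpeg1, perforin-2, a pore-forming protein of macrophages, gave 205.7 and 227 at day 2, 368.5 and 309 on day 3 and 321.7 and 360.9 at day 6, a difference of 0.62 ± 0.18. Slc40a1, the iron exporter ferroportin, gave 183.1 and 149 at day 2 and 217 and 253.7 at day 6, a difference of 0.47 ± 0.19. Lyz2, lysozyme, gave 747.7 and 767.6 at day 2, 1027 and 953.1 on day 3 and 1041.9 and 923.9 at day 6, a difference of 0.37 ± 0.16. Csf1r, the receptor for the macrophage growth factor, differed by 0.31 ± 0.17. In Mpeg1 and Lyz2 the arrays of days 3 and 6 overlapped, and over the list day 3 against day 2 had a median of 0.19. Without day 6 replicate 2 the median was 0.07, with 15 members above 0, so this list too rests on that array for much of its size.

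Among dendritic cell and MHC class II genes the median was 0.23, with 13 of 16 above 0. In 10 both day 6 arrays lay above day 2 and in 2 below, beside 15.4% and 14.9% of all genes. H2-Eb1, a class II chain, gave 1251.5 and 1007.4 at day 2 and 1545.2 and 1737.2 at day 6, a difference of 0.54 ± 0.19. Cd74, the invariant chain that guides class II to the endosome, gave 2212.4 and 2473.8 at day 2 and 2808.3 and 3322.5 at day 6, a difference of 0.38 ± 0.15. Ctss, the protease that trims the invariant chain, gave 619 and 685.1, then 1024.9 and 853.5 at day 3, then 803.1 and 902.9, a difference of 0.38 ± 0.17. Xcr1, which marks the cross-presenting dendritic cells, went the other way with 90.1 and 52.3 at day 2 and 45.2 and 47.2 at day 6, a difference of -0.45 ± 0.27. Leaving out 1 of the 4 arrays gave medians of 0.26 to 0.34. B and plasma cell genes had a median of 0.26, with 11 of 12 above 0 and 6 apart on the higher side, beside 15.4% of all genes. Beside Jchain these included Igha, the heavy chain of IgA, with 246.2 and 290.9 at day 2 and 546.4 and 325.6 at day 6, a difference of 0.63 ± 0.24, and Cd74, which B cells share. With the Gapdh ratio as a covariate this median was 0.16.

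Of the thymic epithelium, the medullary list had a median of 0.23, with 8 of 12 above 0 and 5 apart on the higher side, beside 15.4% of all genes. The cortical list had a median of 0.08, with 8 of 13 above 0. Aire, the regulator that lets medullary cells show tissue antigens to T cells, gave 48.1 and 69.3 at day 2, 85.8 and 101.2 on day 3 and 117.1 and 109.7 at day 6, a difference of 0.81 ± 0.22, and its arrays of the 3 days did not overlap. Krt5, a medullary keratin, gave 226.6 and 183.7 at day 2 and 243.5 and 299.5 at day 6, a difference of 0.38 ± 0.20. Krt14, another medullary keratin, and Fezf2, a second regulator of tissue antigens, had differences of -0.13 ± 0.22 and -0.14 ± 0.24. Foxn1, the master factor of thymic epithelium, gave 145 and 79.4 at day 2 and 60.3 and 101.5 at day 6, and its arrays overlapped. Without day 6 replicate 2 the medullary median was 0.15 and the cortical one -0.01, and the cortical median was 0.01 without day 2 replicate 1 and 0.23 with the Gapdh ratio as a covariate.

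Of the thymocyte lists, the double-positive one alone had a median below 0. Early thymocyte genes had a median of 0.10, with 10 of 17 above 0, and selection-induced genes one of 0.13, with 11 of 16. The early median was -0.12 without day 2 replicate 2 and -0.08 without day 6 replicate 2. In the double-positive list 2 of 16 members lay apart on the higher side and 3 on the lower, near the shares of all genes. Mature single-positive T cell genes had a median of 0.24, with 11 of 14 above 0, while double-positive thymocyte genes had a median of -0.09, with 11 of 16 below 0. Ccr7, the receptor that draws selected cells to the medulla, gave 113.1 and 81.3 at day 2, 139.6 and 176.6 on day 3 and 183.5 and 161.3 at day 6, a difference of 0.75 ± 0.21. Klf2, which lets mature cells leave the thymus, gave 134 and 136.2 at day 2 and 200 and 205.8 at day 6, a difference of 0.54 ± 0.19. Tox, which is needed for CD4 lineage cells, was lower, with 371.7 and 308.7 at day 2 and 253.4 and 290.2 at day 6, a difference of -0.31 ± 0.19. Of the double-positive genes, Satb1, a chromatin organiser, gave 3507.6 and 2852 at day 2 and 2448.4 and 2540.3 at day 6, a difference of -0.34 ± 0.14. Dntt, the terminal transferase active during receptor rearrangement, did not go with it, at 0.10 ± 0.12. The mature T cell median was 0.16 without day 2 replicate 2, and the double-positive median was -0.02 without that array and -0.05 without day 6 replicate 1. Whether the stages differ from each other was not tested.

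**Figure D4:**
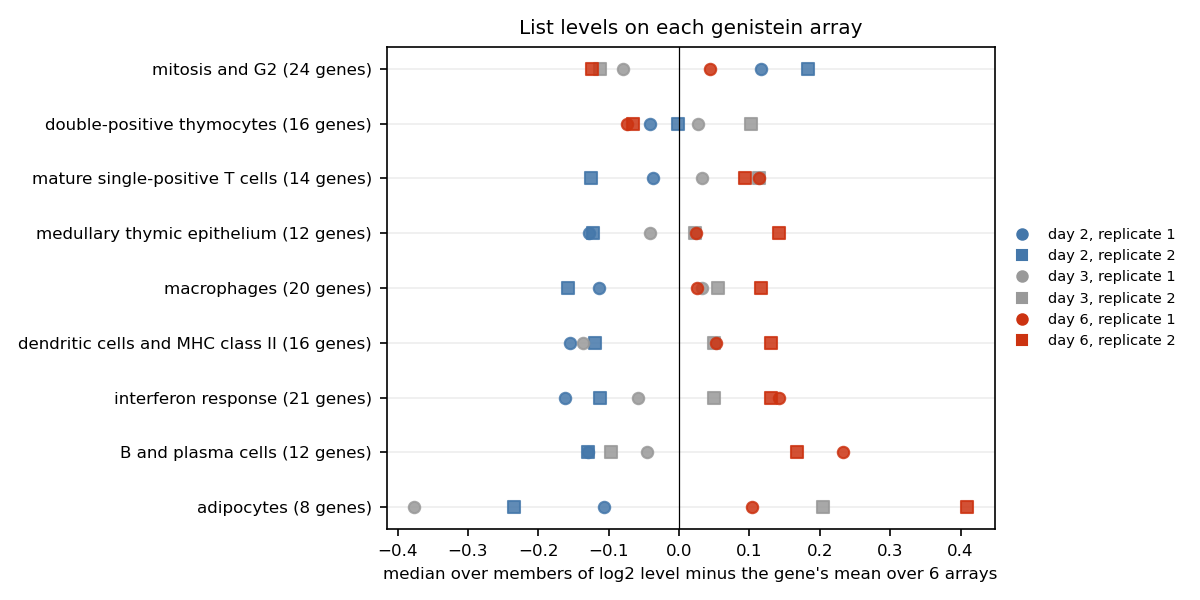
Level of 9 lists on each genistein array, as the median over members of the log2 level minus that gene's mean over the 6 arrays (horizontal axis). Both day 6 arrays lie above both day 2 arrays for the interferon list (0.14 and 0.13 against -0.16 and -0.11), and for the mitosis list day 6 replicate 1 (0.04) lies nearer to day 2 than replicate 2 (-0.12) does.

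Adipocyte genes had the highest list median, 0.44, from 8 tested of 14 on the array. Of the 8, 7 were above 0, 6 lay apart on the higher side and 1, Retn, on the lower side, beside 15.4% and 14.9% of all genes. Scd1, the desaturase that makes oleic acid, gave 349.3 and 223.6 at day 2, 170 and 411.1 on day 3 and 650.3 and 597 at day 6, a difference of 1.11 ± 0.33. Lpl, the lipase that frees fatty acids from lipoproteins, gave 266.4 and 268.1, then 273 and 313.4, then 406.8 and 452.5, a difference of 0.65 ± 0.18. Adipoq, the adipocyte hormone adiponectin, gave 47.7 and 53.4, then 20.3 and 71, then 67 and 108.2, a difference of 0.61 ± 0.36. The whole list summed to signals of 1743 and 1595 at day 2, 1277 and 1965 on day 3 and 2247 and 2799 at day 6. Ucp1, which marks brown fat and was too dim to be tested, gave 11.5 and 23.1 at day 2, 3.5 and 8.3 on day 3 and 42.8 and 215.8 at day 6. Cidea, another brown fat gene too dim to be tested, was at 59.7 on day 6 replicate 2 and between 3.1 and 17.7 on the other arrays. The 2 genes were thus brightest on the same array, without which the list median was 0.22, while it was 0.68 without day 6 replicate 1 and 0.84 with the Gapdh ratio as a covariate. Pparg, Lep, Plin4 and Cidec were also too dim to be tested, and the part of fat around the thymus in these values was not tested. Fatty acid synthesis genes beside Scd1 included Thrsp, a promoter of lipid synthesis, at 0.85 ± 0.33, and Elovl5, an elongase, at 0.49 ± 0.22, but the list median was -0.01 with 6 of 13 above 0, and it was 0.07 without day 6 replicate 1, 0.02 without day 2 replicate 1 and 0.08 with the Gapdh ratio as a covariate.

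Cholesterol synthesis genes had a median of -0.09, with 11 of 17 below 0. In 5 both day 6 arrays lay below day 2, beside 14.9% of all genes, and in 1 above, beside 15.4%. Fdps, which makes farnesyl pyrophosphate, gave 333 and 359.1 at day 2, 270.8 and 226.2 on day 3 and 254.9 and 204.7 at day 6, a difference of -0.57 ± 0.19. Cyp51, the lanosterol demethylase, gave 74.8 and 55.9 at day 2 and 41.7 and 31.5 at day 6, a difference of -0.63 ± 0.24. Sqle, an enzyme between them in the pathway, was at 0.16 ± 0.19. The list median was -0.05 without day 2 replicate 1. Estrogen-responsive genes, with both receptors too dim, had a median of 0.08 and 12 of 17 above 0, and a median of 0.23 with the Gapdh ratio as a covariate. The member with the smallest p was Cyp1b1, which oxidises estrogens and plant compounds, with 55.1 and 76.4 at day 2, 75.4 and 91.7 on day 3 and 98.7 and 134.2 at day 6, a difference of 0.70 ± 0.23.

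To ask whether the change over days differed between genistein and estradiol, the change from day 2 to day 6 was compared between the arms in 1 fit of 12 arrays. The arms differed in compound, in route (diet or daily injection) and in the corn oil, and these cannot be told apart. The interaction called 0 (0%) of 13576 probe sets, with 1022 (7.53%) at an unadjusted p under 0.05 and a smallest adjusted p of 0.578, so no difference between the arms passed. Over genes, each by its brightest probe set, the smallest p of the interaction belonged to Gtpbp6, whose change was -1.03 ± 0.28 in the genistein arm and 1.21 ± 0.28 in the estradiol arm. Next came Gm6958 with -0.61 and 0.92, Tmem266 with 0.81 and -0.69, Myo18a, an unconventional myosin, with -0.40 and 0.60, and Uck2 with -0.84 and 0.23, each value for genistein and then estradiol. All 5 had opposite signs in the arms, but a choice by the smallest interaction p favours such genes, so this is no separate result. The second probe set of Uck2 changed by 0.04 with genistein and 0.01 with estradiol, and that of Gm6958 by -0.93 and 0.04. Of the genes higher at day 6 of genistein, Rtp4 changed by 0.00 ± 0.26 in the estradiol arm and Ctsw by -0.52 ± 0.27, while Jchain was at 0.53 ± 0.19. Scd1 and Lpl, at 1.11 and 0.65 with genistein, were at -0.09 and -0.15 with estradiol.

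**Figure D5:**
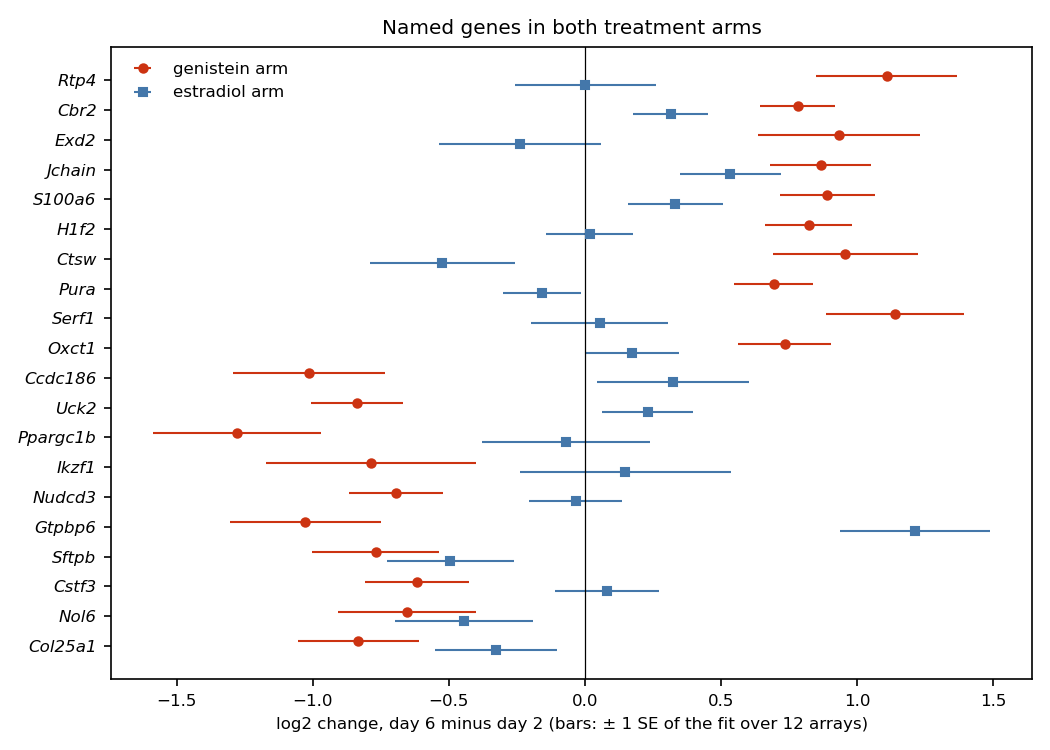
Log2 change from day 2 to day 6 (horizontal axis) in the genistein arm (red circles) and the estradiol arm (blue squares) with bars of 1 SE from the fit over 12 arrays. The genes were chosen for their difference in the genistein arm, so a smaller value in the other arm is no test, and Gtpbp6 has the widest gap at -1.03 and 1.21.

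The list medians of the 2 arms are given side by side each against its own day 2. The mitosis list had -0.20 in the genistein arm and 0.01 in the estradiol arm, and the adipocyte list 0.44 and -0.12. The interferon list had 0.21 and 0.10 and the macrophage list 0.25 and 0.19. The mature T cell list had 0.24 and -0.10 and the B and plasma cell list 0.26 and -0.11. These medians stand as a description, since the arms were compared only gene by gene.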

How the data were processed

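Deposited values were MAS5 5.0 signals, per the submitters' processing notes, in intensity units scaled by the authors. The 64 control probe sets were removed from 22690, 16 was added, log2 was taken, and the 40% of probe sets with the lowest mean were left out blind to group. Symbols came from the platform annotation and the current gene table, with 20380 probe sets naming 1 gene, 691 several and 1555 none. With limma 3.58.1 in R 4.3.3, a mean per day was fitted over the 6 genistein arrays (3 residual degrees of freedom, 11.43 after moderation, intensity trend) with Benjamini-Hochberg adjustment over all probe sets. For the interaction, 12 treated arrays, of which 3 estradiol arrays (day 2 replicate 2 and both of day 3) were deposited on another scale, were multiplied to 1 trimmed mean and fitted likewise. The fit was tested on simulated data. Genes named were the 10 of smallest p in each direction without overlap between the days, the 5 of smallest p in other tests, Esr1, Esr2, Pgr, Rag1, Cd4 and Cd8a, and up to 6 members of each list described, those of smallest p or defining markers. Members named because they went against their list, were too dim or showed an overlap were named after their values were seen. The comparison and the lists were chosen with earlier results of these data known. Of 38 named genes 29 had a promoter entry. Figures used matplotlib 3.10.9 in python 3.11.15. Alternatives were other pseudocounts, filters and scalings, other sets of arrays, a replicate block, the Gapdh ratio as a covariate and each array left out.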

Additional observations from a re-analysis of the deposited data

How the results depend on the processing

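Genistein day 6 against day 2 kept 0 calls with quantile normalization or centring on medians, with a pseudocount of 1 or 64, with a filter of 60% or none, with eBayes lacking its trend, and on all 14 arrays, the 12 treated arrays, only the 4 arrays compared, and no _x_at or _s_at probe sets. The labels number replicates within each day, and whether these numbers pair arrays across days cannot be told here. Deviations of same-numbered arrays correlated at -0.262 (days 2 and 3), -0.166 (days 2 and 6) and 0.353 (days 3 and 6), without a common sign. With the replicate number as a block there were also 0 calls. With the Gapdh ratio as a covariate there were 5 calls for day 6 against day 2 (Malat1, Scgb1b27, Abcf1, Gpaa1 and Ntmt1), 2 for day 6 against day 3 and 2 in the F test. Leaving out 1 array gave 0 to 3 calls for day 6 against day 2, day 3 against day 2, day 6 against day 3 and the F test, and 0 to 1 for the interaction. The calls for day 6 against day 2 were Scgb1b27, Gpaa1 and Ppargc1b without day 6 replicate 1, and Il4ra, Msl2 and Zfp518b without day 6 replicate 2. The 3 for day 3 against day 2 came without day 3 replicate 2, and the interaction's came without estradiol day 2 replicate 2 (Ctr9) or genistein day 6 replicate 1 (Gpaa1). Where 1 array is left, its spread is assumed to be that of the other groups. Of 373 values of the 20 named genes under alternatives, 372 kept their direction without a call, 1 was called and 0 reversed. The rule for naming required day 6 and day 2 not to overlap, so leaving out 1 array could not reverse them. The absence of reversals is therefore largely set by that rule and is no separate evidence. Of 696 list medians, 651 moved by less than the SD between replicates of the list's median log2 level and 45 further, with the sign turned in 38. That level is not centred gene by gene, so its SD is not the spread of the change. For the interferon list it was 0.207, beside a median change of 0.209, and a move below it can be as large as the change itself. There were 2 arrays per day, and their number limits the precision.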

Other observations

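The 2 arrays of day 6 differed most in a few genes, given here as values and chosen for that difference. Gpaa1, part of the enzyme that attaches proteins to membrane anchors, gave 464.3 and 507 at day 2, 417.6 and 444.7 on day 3, and 510.1 and 29.7 at day 6. Scgb1b27, a secretoglobin of salivary and lacrimal glands, gave 95.3 and 72.9 at day 2, 50.2 and 62.4 on day 3, and 47.9 and 583 at day 6. Car6, the carbonic anhydrase secreted in saliva, was also high on day 6 replicate 2 alone, at 182.8 against 30.2 to 56.4 on the other arrays. Ucp1 and Cidea were highest on this array too. Zfp518b gave 108.2 and 243.4 at day 2, 161.4 and 159.4 on day 3, and 12.8 and 158.8 at day 6, so that here replicate 1 stood apart. Gpaa1, Scgb1b27 and Zfp518b are among the genes called when 1 day 6 array was left out. For Ucp1, bright enough to be tested over the 12 treated arrays, the change from day 2 to day 6 was 1.83 with genistein and -2.18 with estradiol, a difference of 4.01 ± 1.02 that did not pass (limma adjusted p = 0.578). At day 2, Lsm7, a splicing factor, differed most between arrays, with 296.9 and 27.5.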
